A study of Arabidopsis thaliana with 8 samples.

Results

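The 8 genes described here are FLC (AT5G10140), SOC1 (AT2G45660) and 6 genes of the autonomous flowering pathway of Arabidopsis thaliana, namely FCA (AT4G16280), FPA (AT2G43410), FVE (AT2G19520), FLD (AT3G10390), LD (AT4G02560) and FLK (AT3G04610). Their models were found by gene identifier, and every transcript model listed for them was kept, which gave 18 of 39087 models and 8 of 31109 genes. Because several models of a gene held identical counts, the 18 models amounted to 12 distinct windows. The measurement was the number of RNA-seq reads in the 500-base window that starts where a transcript model ends, so that reads from transcription past the 3′ end, from a longer model of the same gene or from a neighbouring gene are all counted together.

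Polyadenylated RNA came from 9-day-old Col-0 seedlings of 4 lines, with 2 replicates per line and 8 libraries in all. The first line was wild type (WT). In fip37L, the fip37-4 mutation is combined with a LEC1:FIP37 transgene whose promoter is active in embryos, so that FIP37, part of the enzyme complex writing N6-methyladenosine (m6A) on mRNA, is lost after embryogenesis. The cpsf30-3 line is a T-DNA insertion line that lacks the long isoform of CPSF30, a subunit of the mRNA cleavage and polyadenylation machinery whose long isoform carries an m6A-binding YTH domain. The cpsf30-1 line lacks both isoforms. Each mutant was represented by 1 line. The methods of the study place fip37-4 material on a richer medium with sucrose and collect it under a microscope, and do not say whether the WT seedlings sequenced here shared these conditions, so an effect of culture cannot be told apart from that of fip37L. Nothing in the labels says whether replicates were separate cultures, so the p-values measure the spread between these samples only. In whole seedlings, fewer cells that express a gene and fewer transcripts per cell cannot be told apart. Gene-body reads were not analysed here, so seedling marker genes could not be checked.

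In the autonomous pathway, RNA-binding proteins and chromatin factors hold down FLC, a MADS-box protein that represses flowering, and FLC in turn represses SOC1, a MADS-box protein that promotes flowering. FCA and FPA are RNA-binding proteins that favour proximal polyadenylation of the antisense transcripts of FLC, and each is known to limit its own full-length mRNA by promoting early polyadenylation inside its own gene. FLK is a KH-domain RNA-binding protein, FLD a histone demethylase homologue, FVE a WD-repeat protein of histone-modifying complexes and LD a homeodomain protein.

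The results turn on FPA and FCA, whose models end at several places. The annotated 3′ ends were taken from the TAIR10.1 assembly, RefSeq annotation, and the first 30 bases after each end are shown because they mark where each window begins. All are written 5′ to 3′ on the minus strand, on which both genes lie.
FPA.3 (inner end), chr2:18025892-18025921: ataagaatatactctctgattaggatttct
FPA.4 (middle end), chr2:18025510-18025539: attgcctgaccaagagagaggctttgtgct
FPA.1 and FPA.2 (outer end), chr2:18025217-18025246: actttctcgtctgcccattcttactgtcaa
FCA.1 (inner end), chr4:9207134-9207163: ggttcatatctaccctttctctcctctctc
FCA.2 and FCA.4 (outer end), chr4:9206567-9206596: atatatgtgttcgctcttctaatgattacg

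The ends of FPA.3 and FPA.1 lie 675 bases apart, and those of FCA.1 and FCA.2 lie 567 bases apart. The window of FPA.3 (chr2:18025422-18025921) falls over all 500 of its bases within exons of the longer FPA models. The window of FPA.4 (chr2:18025040-18025539) has 293 bases in such exons and 253 bases in ETFQO (AT2G43400), which encodes an electron-transfer flavoprotein oxidoreductase and runs on the opposite strand. The window of FPA.1 (chr2:18024747-18025246) lies wholly inside ETFQO. The window of FCA.1 (chr4:9206664-9207163) has 383 bases in exons of the longer FCA models, and that of FCA.2 (chr4:9206097-9206596) overlaps the opposite-strand gene AT4G16270 over 387 bases. FCA.3 ends 1 base from FCA.1 and differed from it by 1 read in 1 library, so it is described together with FCA.1.

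**Figure D1:**
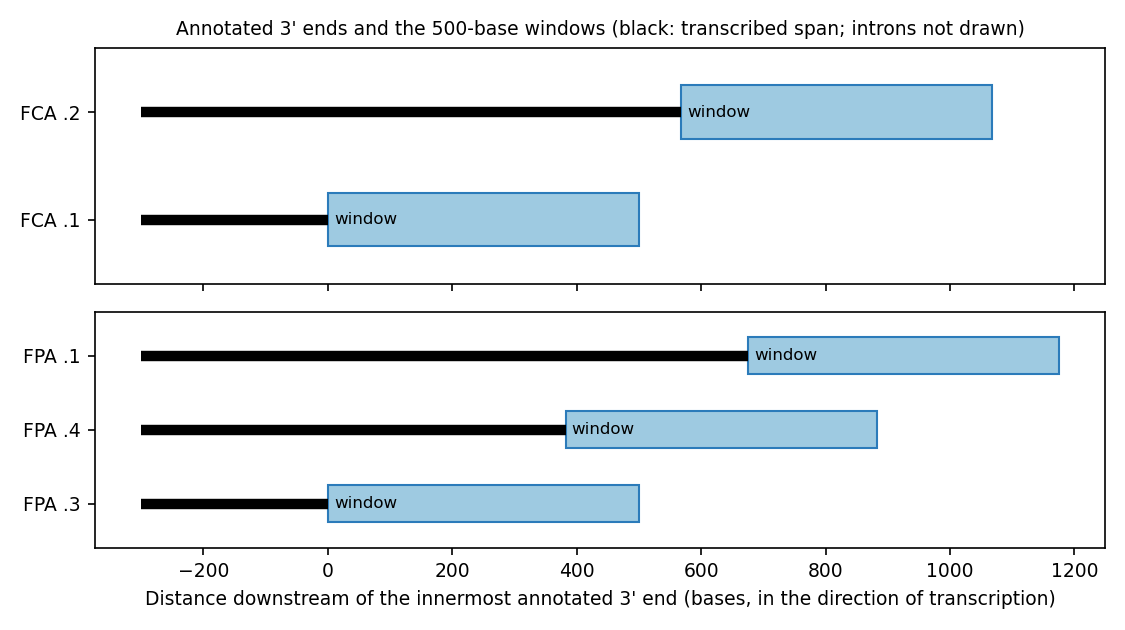
Annotated 3′ ends and 500-base windows of FCA (top) and FPA (bottom); the x axis is the distance in bases downstream of the innermost end of each gene, in the direction of transcription, with introns not drawn. The inner and outer windows do not overlap, because the ends lie 567 bases apart in FCA and 675 bases apart in FPA.

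These positions come from an annotation that is not the one the counting used. Among 229 genes with tested models whose ends lie at least 500 bases apart in RefSeq, 43 (18.8%) still had identical counts in all 8 libraries for the innermost and outermost model, so some models end elsewhere in the annotation used for counting. The member windows named inner and outer held different counts. Strand also matters for these genes. The library kit keeps strand, and the study calls its downstream read density strand-specific where it describes another mutant, nerd-1, but does not give the strand setting behind the counts used here. The downstream window of ETFQO, on the plus strand, held 71 and 88 reads for WT, with 124 and 147 for cpsf30-1, 83 and 67 for cpsf30-3 and 111 and 63 for fip37L, within 5 reads of FPA.4 in every library, although the annotated windows share 247 bases. The window of AT4G16270, also on the plus strand, was within 5 reads of FCA.1 in every library. Over the whole table, 34 pairs of windows on opposite strands shared at least 490 bases and held at least 50 reads in 1 of the pair, and in 14 of them (41.2%) the totals were within 10% of each other, while the other pairs differed by more. Among pairs on the same strand with the same overlap, 9 of 10 were within 10%. At the windows of FPA.4 and FCA.1, where the counts were nearly equal to those of the opposite window, reads of the member and of its neighbour cannot be told apart. The FPA.3 window shares more bases with that of ETFQO, 371, and was within 21 reads of it in every library. Reads of ETFQO can therefore be among those of FPA.3 as well, and their share was not tested.

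Totals ran from 5862499 to 8411827 reads over all models, and the members together held 686 to 1087 reads per library. Levels are given as CPM, counts per 1000000 of the TMM-scaled library size, and since every window has 500 bases, CPM can be compared between windows. The 3 reads taken as the floor correspond to 0.375 to 0.512 CPM, which covers counting error only. The window of CPSF30.2 held 14 to 19 reads in WT and fip37L, 4 and 2 in cpsf30-3 and 0 in both cpsf30-1 libraries. The FIP37 window held 105 and 149 reads in fip37L against 36 to 56 in the other libraries. Both windows lie downstream of the mutated genes and check the labels only indirectly.

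FCA, FPA, FLK and FLD gave enough reads to be tested, with 10 of the 18 models kept by edgeR's filter and 17347 models tested in all. No window of any member was called against WT in fip37L, cpsf30-3 or cpsf30-1, where a call required both a 2-fold change and a Benjamini-Hochberg adjusted p below 0.05. Among all tested windows, cpsf30-1 had 11.0% called higher and 2.46% lower, fip37L 6.81% and 2.75%, and cpsf30-3 1.31% and 0.138%. The largest differences from WT were in cpsf30-1, in the inner and middle windows of FPA and the outer window of FCA, which were 1.8 to 2.0 times the WT level.

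**Figure D2:**
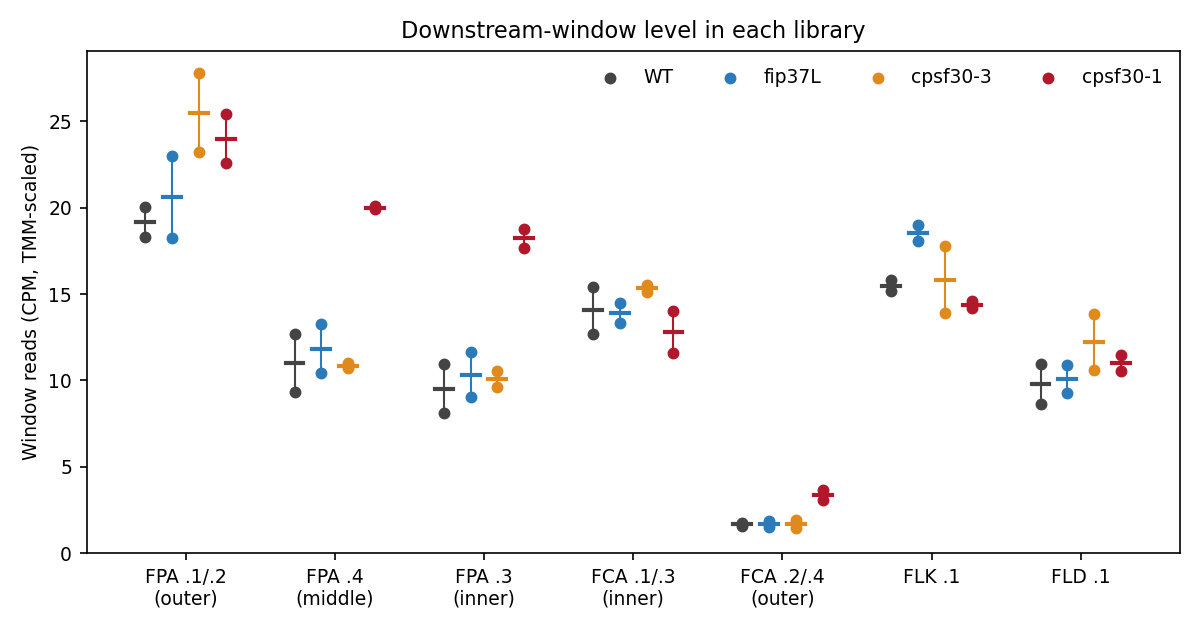
Reads in each tested window, in CPM on the y axis, in the 4 lines; points are libraries and bars are means of 2. In FPA.3, FPA.4 and FCA.2/FCA.4, both cpsf30-1 libraries sit above the other 6 libraries. Over all tested windows, both sat above both WT libraries in 32.2%, and the share above all 6 was not computed.

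FPA held the member windows with the lowest p-values. Its inner window (FPA.3) was at 8.12 and 10.9 CPM for WT, with 18.8 and 17.7 for cpsf30-1, 9.63 and 10.5 for cpsf30-3 and 11.6 and 9.05 for fip37L. Both cpsf30-1 libraries were above the other 6, which overlapped with each other. Among all tested windows, 32.2% had both cpsf30-1 libraries above both of WT, and the share above all 6 was not computed. The log2 difference of cpsf30-1 from WT was 0.94 ± 0.20 (SE), with an adjusted p of 0.0102 in edgeR's quasi-likelihood test, which passed the p threshold and stayed under 2-fold. The downstream window of ETFQO, which shares 371 bases with that of FPA.3, was highest in the same 2 libraries. It held 124 and 147 reads there against 63 to 111 in the others, and its part in the difference was not tested. The fip37L and cpsf30-3 differences from WT were 0.13 ± 0.21 and 0.08 ± 0.21, with adjusted p of 0.705 and 0.873 in edgeR.

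The middle window of FPA (FPA.4) gave nearly the same picture and held few more reads. By annotation it shares bases with both FPA.3 and FPA.1, and the cause of its likeness to FPA.3 was not tested. The FPA.4 level was 9.34 and 12.7 CPM for WT, with 20.1 and 19.9 for cpsf30-1, 11.0 and 10.7 for cpsf30-3 and 13.3 and 10.4 for fip37L. It was 0.86 ± 0.19 (log2) above WT in cpsf30-1, with an edgeR adjusted p of 0.0123, and it was not separate evidence from the inner window. Without a fold threshold, 14.1% of all tested windows passed as higher in cpsf30-1. In fip37L and cpsf30-3 the log2 differences of FPA.4 from WT were 0.12 ± 0.20 and -0.02 ± 0.20.

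The outer window of FPA (FPA.1 and FPA.2) was at 20.02 and 18.3 CPM for WT, with 22.6 and 25.4 for cpsf30-1, 27.8 and 23.2 for cpsf30-3 and 23.0 and 18.3 for fip37L. All 4 libraries of the 2 cpsf30 lines were above both WT libraries, whereas fip37L overlapped WT. The log2 differences were 0.41 ± 0.16 in cpsf30-3 and 0.33 ± 0.17 in cpsf30-1, with edgeR adjusted p of 0.217 and 0.190. Both libraries of a line lay above both of WT in 27.8% of all tested windows for cpsf30-3 and in 32.2% for cpsf30-1.

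Leaving out the first WT library took the inner FPA difference in cpsf30-1 to 0.72 (edgeR adjusted p = 0.103), and leaving out the first cpsf30-1 library to 0.88 (adjusted p = 0.0705). Over all alternatives its adjusted p ran from 0.000981 to 0.103, and that of the middle window from 0.0016 to 0.119.

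In FCA, the largest difference was in the outer window in cpsf30-1, whereas the inner window overlapped WT. The inner window (FCA.1 and FCA.3) was at 12.7 and 15.4 CPM for WT, with 11.6 and 14.0 for cpsf30-1, 15.5 and 15.2 for cpsf30-3 and 14.5 and 13.3 for fip37L. Each line overlapped WT, and the log2 differences from WT were -0.01 ± 0.17 in fip37L, 0.13 ± 0.17 in cpsf30-3 and -0.13 ± 0.18 in cpsf30-1.

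The outer FCA window (FCA.2 and FCA.4, with identical counts) held 22 reads in each cpsf30-1 library, against 13 and 11 for WT, 14 and 9 for cpsf30-3 and 12 and 11 for fip37L. Its level was 3.37 ± 0.397 CPM (SD, n = 2) in cpsf30-1 and 1.67 ± 0.124 in WT, and both cpsf30-1 libraries were above the other 6. Among all tested windows, 32.2% had both cpsf30-1 libraries above both of WT, and the share above all 6 was not computed. The log2 difference of cpsf30-1 from WT was 1.0 ± 0.32, with an edgeR adjusted p of 0.0510, which missed the threshold. Its adjusted p over all alternatives ran from 0.0352 to 0.446. The fip37L and cpsf30-3 differences were 0.00 ± 0.35 and 0.04 ± 0.35.

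**Figure D3:**
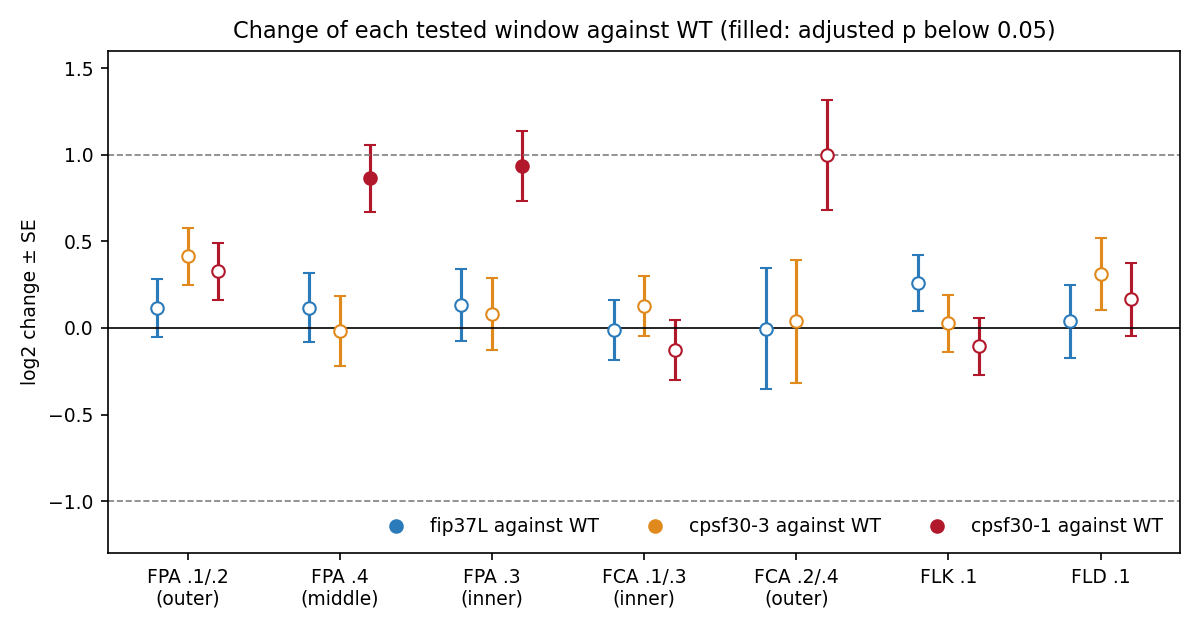
Log2 change against WT (y axis) of each tested member window in fip37L, cpsf30-3 and cpsf30-1, with SE bars; filled points have an adjusted p under 0.05 and dashed lines mark 2-fold. Only FPA.3 and FPA.4 in cpsf30-1 are filled, at 0.94 and 0.86.

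The ratio of outer to inner reads compares 2 windows of each gene within a library, where depth cancels. In FCA, there were 31.4 and 22 outer reads per 100 inner reads in cpsf30-1, compared with 13.8 and 10.3 for WT, 12.4 and 9.78 for cpsf30-3 and 10.3 and 14.1 for fip37L. Both cpsf30-1 libraries were above all others. In FPA (FPA.1 against FPA.3), there were 120 and 144 outer reads per 100 inner reads in cpsf30-1, compared with 247 and 167 for WT, 289 and 220 for cpsf30-3 and 198 and 202 for fip37L. Here both cpsf30-1 libraries were below all others, the opposite order to FCA. The outer window of FPA lies wholly inside ETFQO, and that of FCA overlaps AT4G16270 over 387 bases. The inner FCA window was within 5 reads of that of AT4G16270 in every library. Reads of these neighbours can enter the ratios, and their part was not tested. With 2 libraries per line these ratios were not tested.

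Among 186 genes whose annotated ends lie at least 500 bases apart and whose 2 windows had different counts, the log2 change of the outer window minus that of the inner in cpsf30-1 against WT had a median of 0.05, with quartiles of -0.23 and 0.65. FCA was at 1.12, above 82.3% of these genes, and FPA at -0.61, above 15.6% of them. Against cpsf30-3 in place of WT, a comparison that shares the cpsf30-1 libraries, FCA was at 1.21 and FPA at -0.94, above 92.5% and 4.30% of the genes.

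**Figure D4:**
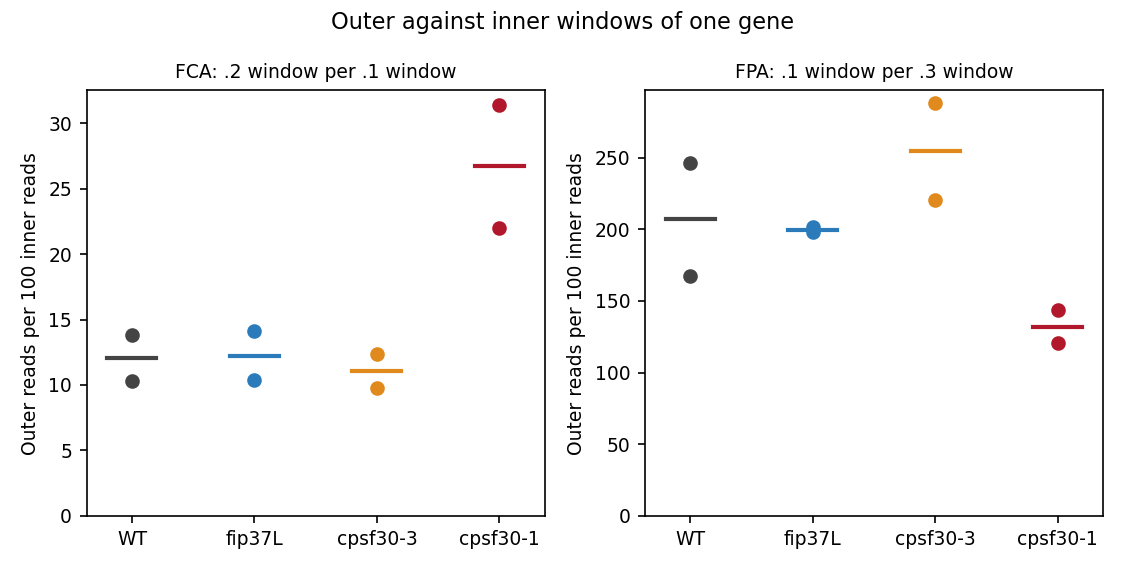
Outer reads per 100 inner reads in each library (points) with the mean of 2 (bars), for FCA (FCA.2 against FCA.1) and FPA (FPA.1 against FPA.3). The cpsf30-1 libraries are highest in FCA, at 22 and 31.4, and lowest in FPA, at 120 and 144.

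FLK and FLD have 1 model each, and neither passed a test between lines. The FLK window (chr3:1250053-1250552) was at 15.2 and 15.8 CPM for WT, with 14.6 and 14.2 for cpsf30-1, 13.9 and 17.8 for cpsf30-3 and 19.0 and 18.1 for fip37L. Both fip37L libraries were above WT and both cpsf30-1 libraries below it, with log2 differences of 0.26 ± 0.16 and -0.11 ± 0.17 and edgeR adjusted p of 0.290 and 0.690. The cpsf30-3 libraries spanned WT, at 0.03 ± 0.16. Both libraries lay below both of WT in 35.7% of all tested windows for cpsf30-1, and above in 31.2% for fip37L. The FLK window covers 343 bases of MUG1 (AT3G04605), a pseudogene on the opposite strand, whose part in these reads was not tested. Of the 12 windows searched, only that of FLK held AATAAA on the gene's strand, a canonical polyadenylation signal found in 44.8% of 35854 windows, and the reverse complement TTTATT was found in 44.9% of windows and was absent from that of FLK.

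The FLD window (chr3:3232346-3232845) was at 8.66 and 10.9 CPM for WT, with 11.5 and 10.5 for cpsf30-1, 10.6 and 13.8 for cpsf30-3 and 9.25 and 10.9 for fip37L. The lines overlapped with WT in every case. The log2 differences were 0.04 ± 0.21 in fip37L, 0.31 ± 0.21 in cpsf30-3 and 0.17 ± 0.21 in cpsf30-1. This window covers 238 bases of a same-strand neighbour, AT3G10400, which encodes a protein of the minor spliceosome, so its reads are not those of FLD alone. It also covers 389 bases of AT3G10405 on the opposite strand, whose part in these reads was not tested.

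FLC, SOC1, FVE and LD were under the filter in all their models and were not tested. The 4 FLC models held the same counts, 2 and 1 reads in WT, 1 in every fip37L and cpsf30-3 library, and 2 and 7 in cpsf30-1. Only the second cpsf30-1 library was over the floor of 3 reads. Summed over both libraries, FLC had 3 reads in WT (95% exact Poisson interval 0.619 to 8.77) and 9 in cpsf30-1 (4.12 to 17.1), and these intervals overlap. RefSeq places an antisense RNA of FLC, AT5G01675, across 11 bases of the window of FLC.1 and 126 bases of that of the other models.

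SOC1 had 2 and 0 reads in WT, 0 in both fip37L libraries, 3 and 2 in cpsf30-3 and 2 and 1 in cpsf30-1. All were at or under the floor, and a count of 0 in a fip37L library allows up to 3 reads. No difference between lines was detectable at this depth. LD, in both models, had 0 reads in WT and at most 2 in any library.

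FVE had 6 reads in each cpsf30-1 library, 7 and 4 in cpsf30-3, and 5 and 6 in fip37L, against 3 and 1 in WT. Each mutant library was above both WT libraries, which among the tested windows was the case for 32.2% in cpsf30-1, 31.2% in fip37L and 27.8% in cpsf30-3. The summed counts were 4 in WT (95% exact Poisson interval 1.09 to 10.2) and 11, 11 and 12 in the mutants, of which the last has an interval of 6.20 to 21.0. These intervals overlap, and the window shares 196 bases with the same-strand gene AT2G19530.

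**Figure D5:**
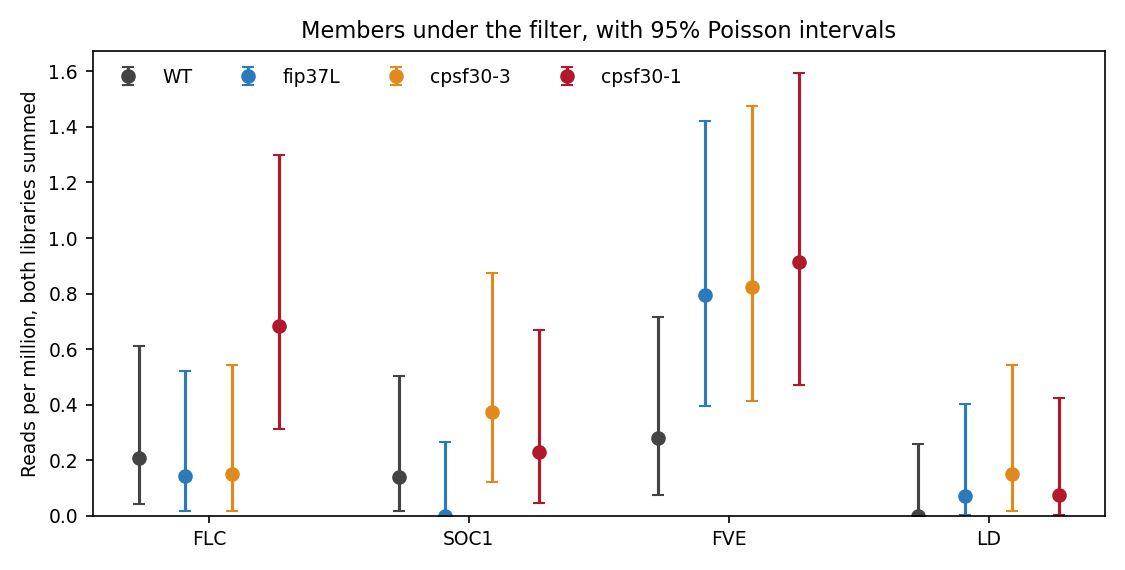
Reads per 1000000 with both libraries of a line summed (y axis), for the 4 genes under the filter, with 95% exact Poisson intervals that cover counting error only. The intervals of WT and of each mutant overlap in all 4 genes.

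The design also compares the mutants with each other. The cpsf30-1 and cpsf30-3 lines differ in the short CPSF30 isoform, which cpsf30-3 keeps. No member window was called between them, with 6.23% of all tested windows called higher and 1.39% lower in cpsf30-1. An unadjusted p under 0.05 was found in 3 of 7 distinct windows, FPA.3, FPA.4 and FCA.2. Such edgeR p-values were common, and that of FCA.2, 0.0145, ranked 3029 among 17347 tested windows. FPA.3 and FPA.4 were 0.85 ± 0.20 and 0.88 ± 0.19 (log2) higher in cpsf30-1, with edgeR adjusted p of 0.0252 and 0.0203, again under 2-fold, where 7.61% of all tested windows passed as higher on p alone. Both lost the p threshold in DESeq2, with adjusted p of 0.107 and 0.0684, and when any cpsf30-3 or cpsf30-1 library was left out, where the edgeR adjusted p ran from 0.103 to 0.168 for FPA.3 and from 0.101 to 0.122 for FPA.4. Over all alternatives the lowest were 0.00415 and 0.00198. FCA.2 was 0.96 ± 0.32 higher, with an edgeR adjusted p of 0.0829. DESeq2 also called 0 member windows here, as it did in each contrast with WT. In cpsf30-1 against WT, FPA.3 and FPA.4 passed the p threshold in DESeq2, at adjusted p of 0.0360 and 0.0448, and stayed under 2-fold.

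Between fip37L and cpsf30-1, 2 models were called, FCA.2 and FCA.4, which hold the same counts and make 1 window. It was lower in fip37L, at -1.0 ± 0.32 (log2) with an edgeR adjusted p of 0.0384, where 10.2% of all tested windows were called lower and 7.38% higher. This call was lost in DESeq2 (adjusted p = 0.357) and when any 1 of the 8 libraries was left out, and its adjusted p over all alternatives ran from 0.0261 to 0.357. FPA.3 and FPA.4 were lower in fip37L by log2 differences of -0.81 ± 0.20 and -0.75 ± 0.19, with edgeR adjusted p of 0.0133 and 0.0156, and 17.7% of all tested windows passed as lower on p alone. In DESeq2 the adjusted p was 0.0557 and 0.0647, and without the first or second cpsf30-1 library the edgeR adjusted p was 0.0756 and 0.0546 for FPA.3 and 0.0729 and 0.0713 for FPA.4, which miss the threshold. FPA.4 also missed it without the second fip37L library, at 0.0586. Over all alternatives the lowest were 0.0042 for FPA.3 and 0.00701 for FPA.4.

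Between fip37L and cpsf30-3, no member window was called by edgeR or DESeq2, none of 7 had an unadjusted p under 0.05, and 4.04% of all tested windows were called higher and 2.64% lower. Against WT, 0 of these 7 windows had an unadjusted p under 0.05 in fip37L, 1 in cpsf30-3 and 3 in cpsf30-1. Such edgeR p-values were common. That of FPA.1 in cpsf30-3, 0.0315, ranked 2509 among 17347 tested windows. In cpsf30-1 the 3 were FPA.3, FPA.4 and FCA.2, and that of FCA.2, 0.0113, ranked 3861. In a test across all 4 lines at once, FPA.3 and FPA.4 passed, with edgeR adjusted p of 0.0124 and 0.0127, as did 38.7% of all tested windows. Neither passed when a cpsf30-1 library was left out.

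As a description of the 7 windows that passed the filter, their median log2 change against WT was 0.33 in cpsf30-1, 0.08 in cpsf30-3 and 0.11 in fip37L, beside medians over all tested windows of -0.03, 0.00 and 0.03. These windows come from 4 genes, and the cpsf30-1 median is the value of FPA.1. FPA.3, FPA.4 and FCA.2 lay above it, and FLD (0.17), FLK (-0.11) and FCA.1 (-0.13) below, so no shift of the set is read from it.

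Other genes that act around FLC were followed in 6 lists of 46 genes, of which 24 were tested by the lowest-numbered model that passed the filter. Against WT, cpsf30-1 had 3 called higher, cpsf30-3 had 1 and fip37L had 1, and 0 were called lower in any mutant, beside 11.0%, 1.31% and 6.81% of all tested windows called higher in these lines. With 24 genes tested, these counts are few, and nothing particular to the lists is read from them. None of the 8 floral integrators and targets was tested. FT, which encodes florigen, held 0 reads in every library, and so did its homologue TSF and the floral identity gene AP1. Among 9 tested activators of FLC, HUA2, which encodes an RNA-processing factor, was called higher in all 3 mutants. Its window held 16 and 13 reads for WT, with 49 and 45 for cpsf30-1, 44 and 37 for cpsf30-3 and 78 and 80 for fip37L. The HUA2 window overlaps the same-strand gene AT5G23155, whose part in this was not tested. The HUA2 log2 change was 2.51 ± 0.27 in fip37L (edgeR adjusted p = 0.000616), 1.58 ± 0.29 in cpsf30-3 (adjusted p = 0.0302) and 1.82 ± 0.28 in cpsf30-1 (adjusted p = 0.00219).

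SUF4, a zinc-finger activator of FLC, held 24 and 23 reads in fip37L against 7 in each cpsf30-3 library and 10 and 11 in cpsf30-1, and was called against both, in a window that overlaps the same-strand gene AT1G30960. Its difference from WT, at 11 and 13 reads, had an edgeR adjusted p of 0.0518. ELF7, a subunit of the Paf1 complex, was called higher in cpsf30-1 at 20 and 30 reads against 12 and 1 in WT, so that the WT replicates differed widely. Among 4 tested autonomous and 3′-end processing genes, GRP7, a glycine-rich RNA-binding protein, held 27 and 17 reads in cpsf30-1, against 8 and 8 for WT, 1 and 0 for cpsf30-3 and 9 and 7 for fip37L. It was called higher in cpsf30-1 than in WT, cpsf30-3 and fip37L, and higher in fip37L than in cpsf30-3. LHP1, a Polycomb protein that keeps FLC silent, was called between cpsf30-1 (26 and 20 reads) and cpsf30-3 (9 and 10), 1 of 5 tested genes of its list. Over all 6 lists, 2 of 24 tested genes were called higher in cpsf30-1 than in cpsf30-3, beside 6.23% of all tested windows. In fip37L, 2 were called higher than in cpsf30-3, beside 4.04%. Against cpsf30-1, 1 was called higher in fip37L and 2 lower, beside 7.38% and 10.2%. Of the 4 tested FLC-clade MADS-box genes and the 2 photoperiod genes, none was called against WT in any mutant by the model tested. MAF2 was tested by a window of at most 34 reads, while another of its models held up to 389 and is not described here. MAF3, a MADS-box relative of FLC named here after its values were seen, was lower in fip37L than in cpsf30-1 at -1.34 ± 0.45 (log2), with an edgeR adjusted p of 0.0460. Neighbouring genes of the ELF7, GRP7, LHP1 and MAF3 windows are not given here, and their part in the reads was not tested. In the test across all 4 lines, 9 of the 24 list genes passed, among them FLM and MAF5 of the FLC clade and both photoperiod genes, GI and FKF1, beside 38.7% of all tested windows.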

How the data were processed

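RNA-seq libraries of 8 seedling samples, stranded and single-end per the labels, were grouped by the labelled genotype. The authors removed organelle and ribosomal RNA reads with Bowtie 2 2.3.4, mapped to TAIR10 with TopHat2 2.0.7 and counted reads with BEDTools, whose version and strand setting for these files are not given in the sources used here; what they deposited is the unscaled read count of each transcript model's 500-base downstream window. The study took the fold change of a window as a ratio of counts per mapped reads.

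Counts were tested in R 4.3.3 with edgeR 4.0.16 (quasi-likelihood, two-sided, TMM, filterByExpr) in 1 fit of 4 groups with 4 residual degrees of freedom. Calls needed a Benjamini-Hochberg adjusted p under 0.05 and 2-fold. DESeq2 1.42.0 was an alternative, as were other filters and scalings, a fit per pair of lines, a replicate block, 1 model per gene and leaving out each library. On simulated counts for 17347 windows the fit recovered 84.5% of 200 windows changed 4-fold in cpsf30-1. It made 13 false calls there and 3 calls in the unchanged fip37L contrast. Changes near 2-fold, the size of the largest member differences, were not simulated, so their recovery is not known. Windows were placed from RefSeq 3′ ends, which located 38527 models. Members and lists were chosen with earlier results of these data known. All 8 members were named, with list genes called in any contrast, at most the 5 of highest mean CPM. Likeness to FLC and SOC1 was not computed, as neither passed the filter.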

Additional observations from a re-analysis of the deposited data

Results flagged for a closer look

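In 5 cases a member window differed between 2 mutants by the edgeR test of that difference, so that their changes against WT, which share the WT libraries, were unequal. FPA.3 and FPA.4 were higher in cpsf30-1 than in cpsf30-3, by 0.85 and 0.88 on the log2 scale. The same windows were lower in fip37L than in cpsf30-1, at -0.81 and -0.75. FCA.2 was lower in fip37L than in cpsf30-1, at -1.0. All 4 FPA differences were under 2-fold and missed an adjusted p of 0.05 in DESeq2 (0.0557 to 0.107) and in edgeR without either cpsf30-1 library, and that of FCA.2 missed it in DESeq2 and without any 1 library. The FPA windows overlap in part and are treated as 1 observation. The downstream window of ETFQO on the other strand was highest in the same cpsf30-1 libraries (124 and 147 reads in cpsf30-1 against 63 to 111 elsewhere). Its part in the result was not tested.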

How the results depend on the processing

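Calls are counted here by model, so that the 1 window of FCA.2 and FCA.4 counts as 2. Member models called in fip37L and cpsf30-3 against WT, and between these lines, were 0 under every alternative. For cpsf30-1 against WT the 0 became 1 with a filter at a mean of 20 counts and 2 in a fit of the 2 groups only, without a fold threshold and by a 2-fold ratio of counts per total, and 0 to 2 with one library left out (2 without the second WT library). For cpsf30-1 against cpsf30-3 the 0 became 2 without a fold threshold and 2 by the ratio. For fip37L against cpsf30-1 the 2 became 0 in DESeq2, without a filter and in the fit of 2 groups. The count was also 0 with the mean-20 filter and with the lowest-numbered model, both of which leave out FCA.2, whose mean count was 14.25. It was 1 with identical models kept once, which is the same FCA window, and 4 without a fold threshold. Across the 4 lines the 2 became 4 with library size scaling and 0 with the lowest-numbered model, which leaves out FPA.3 and FPA.4. Where no construction is named, the cause was not tested. Replicate numbers did not pair the libraries (correlations of deviations -0.09 to 0.05), and the replicate block left 2 calls in fip37L against cpsf30-1.

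Uncalled log2 changes against WT near 0 turned sign. These were, in cpsf30-3, FPA.4 at 0.0080 with the mean-20 filter, FLK at -0.022 and FCA.2 at -0.010 with library size scaling, and in fip37L, FLD at -0.063 with library size scaling, FCA.1 at 0.026 with the mean-20 filter and FCA.2 at 0.0032 in DESeq2. With one library left out, the fip37L values ran from -0.068 to 0.26 (FPA.1), -0.072 to 0.38 (FPA.3), -0.090 to 0.38 (FPA.4), -0.12 to 0.24 (FLD), -0.14 to 0.16 (FCA.1) and -0.16 to 0.17 (FCA.2). The cpsf30-3 values ran from -0.12 to 0.34 (FPA.3), -0.22 to 0.25 (FPA.4), -0.13 to 0.20 (FLK), -0.0033 to 0.30 (FCA.1) and -0.18 to 0.22 (FCA.2), and the cpsf30-1 values from -0.0089 to 0.36 (FLD) and -0.28 to 0.031 (FCA.1). With 2 libraries per line, the SE of the tested windows was 0.16 to 0.35 on the log2 scale.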
